A study of Nothobranchius furzeri with 20 samples.

Results

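The genes described here carry successive identifiers, Nfu_g_1_010650 to Nfu_g_1_010900, in a table of gene counts from killifish muscle. Every identifier of that stretch was in the table, and a gene was taken as a member when its mean over the 20 libraries was at least 1 CPM (the count scaled to a library total of 1000000). Members were thus selected on their mean level, which is a description and not a result. The rule left 157 members of 26739 genes in all, while 94 identifiers of the stretch fell below it. Of those 94, 17 had a count of 0 in every library and 32 still passed the low-count filter of the tests. The members just inside the limit had means of 1.065, 1.1 and 1.259 CPM, and the genes just outside had 0.969, 0.877 and 0.841 CPM. All 157 members passed the low-count filter and were tested, among 16653 tested genes, of which 13383 had a mean of at least 1 CPM.

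The turquoise killifish, Nothobranchius furzeri, is an annual fish of seasonal ponds that matures and ages within months, and it is used to study ageing of muscle and other tissues. In many genomes, genes that lie side by side share expression, because tandem duplicates keep common control sequences, because transcripts overlap, or because neighbouring genes sit in one chromatin domain. Identifiers given in the order of an assembly would follow such neighbourhoods. Whether these identifiers follow the genome is not shown, and the order of the table itself differs from the order of the identifiers, with a median step of 30 rows between successive identifiers in the stretch and 92.5 rows over the table. None of the identifiers was paired with a gene name, so functions cannot be given and the muscle label could not be checked against marker genes. Only 6 members are called by identifier below, and the others are described by length and level.

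All fish were males of the strain MZM-04/10p. The 3 groups were 5 libraries from unexercised fish aged 9 weeks, 5 from fish aged 9 weeks with swim-tunnel exercise (swimming against a current in a closed chamber), and 10 from swim-tunnel fish aged 27 weeks. None of the 20 libraries came from unexercised fish of 27 weeks, so a difference with exercise at that age cannot be estimated here. The label does not say how much each fish swam, so the age comparison is between fish with the same exercise label. Library totals ran from 24333849 to 38571967 counts, so that 1 CPM stood for 24.3 to 38.6 counts. The labels name no individual animal, so p-values measure the spread between these samples, which may be partly technical. Each group holds its own block of sample codes, and a batch along those codes cannot be told apart from age or exercise. In bulk tissue, fewer cells of a type and less RNA per cell cannot be told apart.

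The 27-week libraries did not form one cluster. Libraries 1 to 5 lay wholly above libraries 6 to 10 for 50 members and wholly below for 7, which together made 36.3% of the members, against 38% of all tested genes with a mean of at least 1 CPM. The labels of both sets are alike apart from the sample codes. Libraries are numbered in the order of those codes, so libraries 1 to 5 carry lower codes than libraries 6 to 10. A batch along the codes cannot be told apart from the sets. The counts of calls with age and the fold changes with age of the described members are therefore also given with each set left out.

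The members resembled the other genes in level. Their mean levels had a median of 6.63 CPM (quartiles 2.95 and 16.7), and those of the 13226 other tested genes over 1 CPM had a median of 7.22 CPM (quartiles 2.95 and 18.9). Lengths recovered from the authors' RPKM values (reads scaled by gene length and library size) had a median of 2649 bases among members, with a range of 201 to 15328, against 3005 bases among the others. A total of 66 members stayed under 5 CPM and 8 exceeded 100 CPM. The 3 most abundant members held 62.9% of the summed CPM of the stretch, so that sums over the stretch follow those 3 genes.

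As a sum, the members took a similar share of all counts in each group. The share was 0.776% ± 0.0438 (SD, n = 5) in unexercised fish of 9 weeks, 0.763% ± 0.0187 (SD, n = 5) in swim-tunnel fish of 9 weeks and 0.788% ± 0.0797 (SD, n = 10) at 27 weeks, and the ranges overlapped. Without the 3 most abundant members the shares were 0.316% ± 0.0327, 0.300% ± 0.0306 and 0.270% ± 0.0254, in the same order and again with overlapping ranges. The 27-week libraries 6 to 10 (0.23 to 0.275%) lay below all unexercised libraries (0.284 to 0.372%). They just overlapped the 9-week swim-tunnel libraries (0.274 to 0.346%). The 27-week libraries 1 to 5 (0.265 to 0.303%) overlapped both 9-week groups. The median member, set against the median of the other genes in the same library, deviated by 0.0377 ± 0.0333 (SD, n = 5), 0.0195 ± 0.0641 (SD, n = 5) and -0.0382 ± 0.0504 (SD, n = 10) log2 units from its mean over all libraries. The ranges of the 3 groups overlapped here too, but the 27-week sets differed in the other direction. Libraries 1 to 5 lay between -0.114 and -0.051, below all unexercised libraries (0.0017 to 0.0916) and overlapping the 9-week swim-tunnel libraries (-0.064 to 0.108), whereas 4 of libraries 6 to 10 were above 0.

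The comparison of 27-week with 9-week swim-tunnel fish addressed age. Of the 157 members, 25 rose and 43 fell (quasi-likelihood test of edgeR, threshold of 0.05 on p adjusted by Benjamini-Hochberg over all tested genes). Those that rose were 15.9% of the members (95% Wilson interval 11 to 22.5%), and among all tested genes 14.8% rose, or 15.9% of those with a mean of at least 1 CPM. Those that fell were 27.4% of the members (Wilson interval 21.0 to 34.8%), against 16.8% of all tested genes and 20.0% of those over 1 CPM. These intervals cover counting error only and take genes as independent, which genes of the same libraries are not. The stretch was also proposed with results of these data in view, so the intervals are no test against the background. The share that rose thus equalled the background, and the share that fell was above it.

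Called falls were smaller, in the median, than called rises. The called rises had a median log2 fold change of 1.01, with 13 of 25 at 2-fold or more and 2 at 4-fold or more. Of these rises, 5 (3.18% of the members) averaged under 1 CPM in both 9-week groups and are members only through their 27-week level. Their log2 fold changes, 1.22 to 2.86, all lay above that median. Among the genes over 1 CPM, 1.42% were such rises. Sizes of calls over all genes are not given, so these medians describe the members only. The called falls had a median of -0.70, with 12 of 43 at 2-fold or more and 3 at 4-fold or more. The groups did not overlap in any library for 7 of the rises and 22 of the falls, or 4.46% and 14.0% of the members, while 2.12% and 6.7% of the genes over 1 CPM were called without overlap in those directions. Over all members, called or not, the median log2 fold change was -0.03 (quartiles -0.50 and 0.37), beside 0.00 (quartiles -0.40 and 0.38) for all tested genes over 1 CPM.

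**Figure D1:**
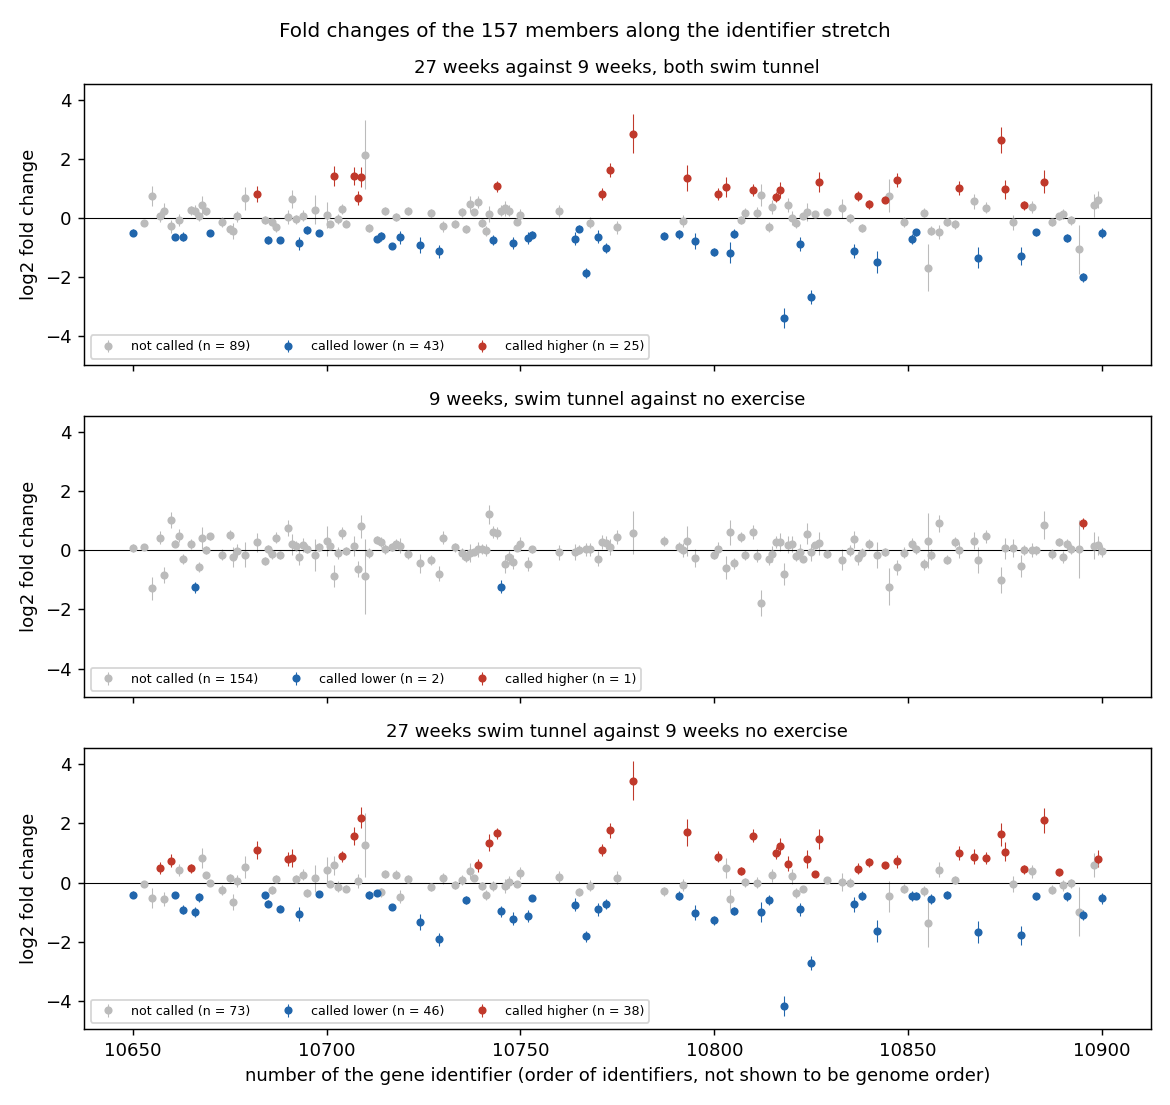
Each point is 1 of the 157 members, placed by its identifier number on the x axis, with its log2 fold change and standard error on the y axis; the panels show age in swim-tunnel fish, exercise at 9 weeks, and 27-week swim-tunnel against 9-week unexercised fish. Red points were called higher and blue points lower; the upper panel holds 25 red and 43 blue points, the middle panel 1 and 2, and the lower panel 38 and 46.

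The calls depended on which 27-week libraries were used. Without libraries 1 to 5, 20 members rose and 31 fell (12.7% and 19.7%), while 10.9% and 15.7% of the genes over 1 CPM did. Without libraries 6 to 10, 36 rose and 56 fell (22.9% and 35.7%), while 24.1% and 32.7% of those genes did. Of the 25 rises, 13 were called again without libraries 1 to 5 and 23 without libraries 6 to 10, and 11 in both fits. Of the 43 falls, 28 and 42 were called again, and 27 in both. The excess of falls over the background was smaller with either set left out.

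The share of falls was set beside that of other stretches of equal length, laid end to end along the identifiers, each with 107 to 174 genes over 1 CPM. The shares in the 92 other stretches ran from 10.2 to 33.3% with a median of 19.6% (quartiles 17.3 and 22.8%), and 5 of them reached 27.4% or more. Stretches were also begun at every identifier from which a stretch held at least 50 genes over 1 CPM. Of these, 1467 of 23448 did so, or 6.26%. They overlap each other, and those begun near this stretch share members with it. The members thus lay in the upper part of the range but not at its end. For rises, 46 of the 92 other stretches were at or above 15.9%, around a median of 16.1%. Calls in either direction made up 43.3% of the members, and 5 of the 92 reached that, from a range of 22.2 to 46.3%. The median log2 fold change of -0.03 lay inside a range of -0.24 to 0.19, with 58 of 92 stretches at or above it. The stretch was proposed with results of these data in view, so its rank is a description without a test.

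**Figure D2:**
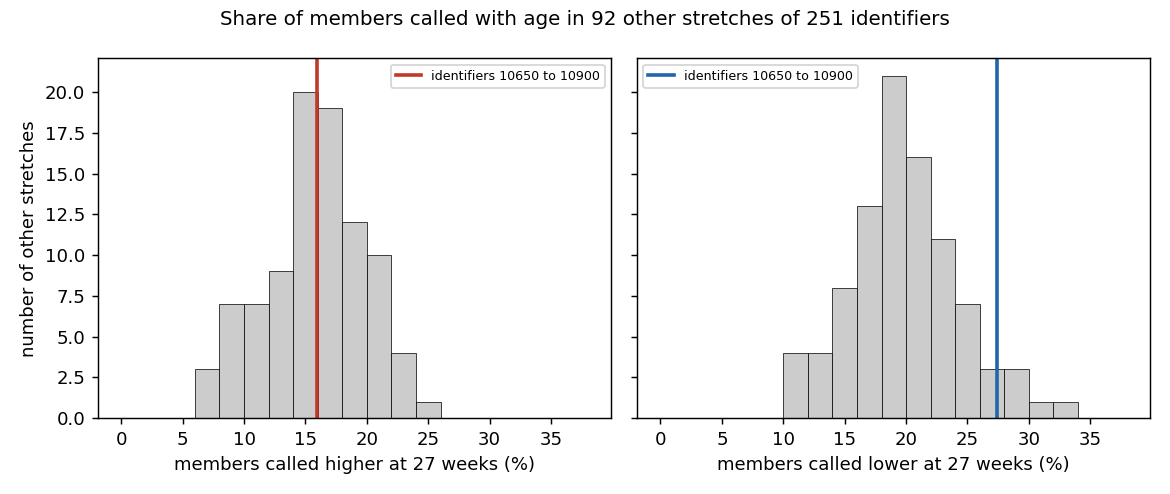
Histograms count the 92 other stretches by the percent of their members called higher (left) or lower (right) at 27 weeks against 9 weeks in swim-tunnel fish. The coloured line marks the identifiers described here, at 15.9% near the middle on the left and at 27.4% on the right, where 5 stretches lie at or beyond it.

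The rank also depended on the 27-week libraries. Without libraries 1 to 5, 13 of the 92 other stretches had a share of falls of 19.7% or more, and without libraries 6 to 10, 24 of the 92 had 35.7% or more. Moving the stretch by the same number of identifiers in either direction, while keeping its length, gave 26.3% of falls towards lower identifiers and 19.3% towards higher ones, where 10 and 51 of 92 stretches were at or above it. The high share was thus not spread evenly along the identifiers.

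Within the stretch, falls were densest near its middle. Of 5 successive divisions with about equal numbers of identifiers, the third held 19 members, of which 10 fell (52.6%) and 4 rose. In the 4 other divisions, falls made up 21.1 to 26.7% of 30 to 38 members. Those shares were nearer the 20.0% of all tested genes over 1 CPM that fell, while 15.9% of those genes rose. Rises were fewest in the first division, with 1 of 34 members (2.94%), and most frequent in the fourth, with 10 of 36 (27.8%). Each division holds few genes and gets no test.

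Direction went with level. The members were divided at their median of 6.63 CPM, a choice made after the values were seen. Of 78 members below it, 19 rose (24.4%) and 11 fell (14.1%), and of 79 members at or above it, 6 rose (7.59%) and 32 fell (40.5%). The same division of all tested genes over 1 CPM gave 17.6% higher and 12.5% lower among 6346 less abundant genes, and 14.3% higher and 26.7% lower among 7037 more abundant genes. Both sets thus held more falls among abundant genes. The rule for members favours rises at low level, since 6 members (3.82%) averaged under 1 CPM in both 9-week groups and entered through their 27-week level, and 5 of them rose. The same held for 2.4% of the genes over 1 CPM. Without such genes, 14 of 72 less abundant members rose (19.4%) and 11 fell (15.3%), against 15.4% and 13.2% of 6026 less abundant genes. Genes under 1 CPM at 27 weeks, which entered through their 9-week level, stayed in. They were 2 members (1.27%), 1 of them called lower, and 1.4% of the genes over 1 CPM.

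**Figure D3:**
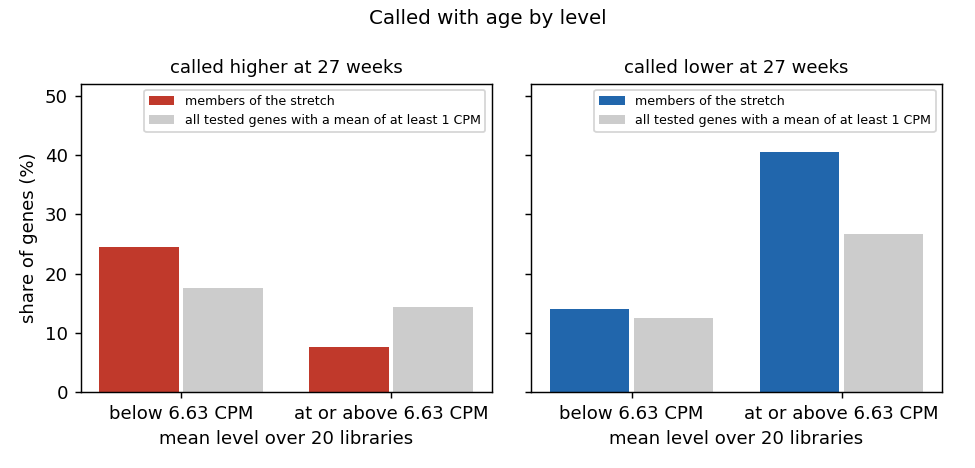
Bars give the percent of genes called higher (left) or lower (right) at 27 weeks among members (coloured) and among all tested genes over 1 CPM (grey), below and at or above the members' median level. Falls reached 40.5% of the more abundant members, against 26.7% of the more abundant genes in all, and rises 24.4% of the less abundant members against 17.6%.

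Nfu_g_1_010874, a short gene of 381 bases, rose with age by the largest factor among the members the naming rule allowed. It stood at 2.22, 1.10, 0.421, 1.17 and 0.863 CPM in swim-tunnel libraries 1 to 5 of 9-week fish and at 1.36, 2.36, 2.81, 3.33 and 1.8 CPM in the unexercised libraries. At 27 weeks it ran from 3.40 through a median of 5.74 to 12.1 CPM, above every 9-week library. With age its log2 fold change was 2.64 ± 0.43 (SE; adjusted p = 0.000158 by edgeR). The lowest library held only 16 counts. The 27-week libraries 1 to 5 (3.40 to 7.02 CPM) and 6 to 10 (3.81 to 12.1 CPM) overlapped, and the log2 fold change was 3.1 without the former and 1.89 without the latter. The difference with exercise at 9 weeks, -1 ± 0.45, did not pass the test (edgeR adjusted p = 0.322).

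Nfu_g_1_010773, of 5124 bases, was the next by size. Its level was 2.76, 2.35, 2.16, 2.4 and 1.68 CPM in the 9-week swim-tunnel libraries and 2.17, 2.33, 1.96, 2.15 and 1.95 CPM in the unexercised ones. The 27-week libraries fell into 2 separate sets, from 8.01 to 12.9 CPM in libraries 1 to 5 and from 3.67 to 5.59 CPM in libraries 6 to 10, both above all 9-week libraries. The increase with age was 1.64 ± 0.24 on the log2 scale (SE; adjusted p = 8.33e-05 by edgeR), and it was 1.10 without libraries 1 to 5 and 1.98 without libraries 6 to 10.

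A 2530-base gene in the table row next to Nfu_g_1_010773 had the largest called rise of all members, but at a lower level than the naming rule asks. With means of 0.391 and 0.575 CPM in the 9-week groups, it is a member only through its 27-week level. It had 6.37 to 10.1 CPM in 27-week libraries 1 to 5, 0.539 to 1.35 CPM in libraries 6 to 10 and 0.0631 to 0.858 CPM in the 10 libraries of 9-week fish. Its log2 fold change, 2.86 ± 0.65 (SE; adjusted p = 0.00244 by edgeR), became 0.93 without libraries 1 to 5 and no longer passed (adjusted p = 0.0819), and 3.6 without libraries 6 to 10. The call thus rested on libraries 1 to 5. The pair lay 6 identifiers apart, and their deviations from the group means correlated with r = 0.80 over the 20 libraries. Both genes divide by the 27-week sets, and with the mean of each set removed r was 0.276.

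Among the falls, Nfu_g_1_010825, of 1069 bases, combined a high level with a large decrease. It stood at 161.0, 95.6, 108.4, 112.9 and 162.4 CPM in the 9-week swim-tunnel libraries and at 132.8, 120.3, 170.7, 137.8 and 114.1 CPM in the unexercised ones. At 27 weeks it ran from 11.7 through a median of 17.6 to 40.3 CPM. All 27-week libraries lay below all 9-week libraries. Age gave a log2 fold change of -2.66 ± 0.24 (SE; adjusted p = 1.49e-06 by edgeR), and leaving out 27-week libraries 1 to 5 gave -2.48, leaving out libraries 6 to 10 -2.9. Those sets had 11.7 to 29.1 and 11.7 to 40.3 CPM. Between the 9-week groups its log2 difference was -0.07 ± 0.28.

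The 898-base gene in the next table row had the largest called fall. It had 2.42, 1.57, 4.47, 9.37 and 5.34 CPM in the 9-week swim-tunnel libraries, 5.59 to 12.3 CPM in the unexercised ones and 0.101 to 0.837 CPM at 27 weeks, without overlap. Its log2 fold change with age, -3.38 ± 0.34 (SE; adjusted p = 3.71e-06 by edgeR), was -3.29 without libraries 1 to 5 and -3.50 without libraries 6 to 10. The rows of this pair adjoin and their identifiers lie 7 apart, but their deviations from the group means correlated only with r = 0.352. No strand is stated for the counting, so reads of overlapping or antisense genes cannot be told apart in any of these counts.

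Nfu_g_1_010895, of 1492 bases, differed in all 3 comparisons. Its level was 5.02, 4.71, 4.63, 8.37 and 7.60 CPM in the 9-week swim-tunnel libraries, 3.49, 2.93, 3.44, 3.75 and 2.63 CPM in the unexercised ones, and 1.30 through a median of 1.47 to 1.84 CPM at 27 weeks. The 3 groups did not overlap, with 9-week swim-tunnel fish highest and 27-week fish lowest. On the log2 scale it changed by -2 ± 0.16 with age (SE; adjusted p = 2.53e-07 by edgeR) and by -1.09 ± 0.16 at 27 weeks against unexercised fish (adjusted p = 4.5e-05). The decrease with age measured -1.81 when 27-week libraries 1 to 5 were left out and -2.25 when libraries 6 to 10 were. The change was 0.91 ± 0.19 with exercise at 9 weeks (adjusted p = 0.0487), close to the threshold. The lowest library held 35 counts.

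**Figure D4:**
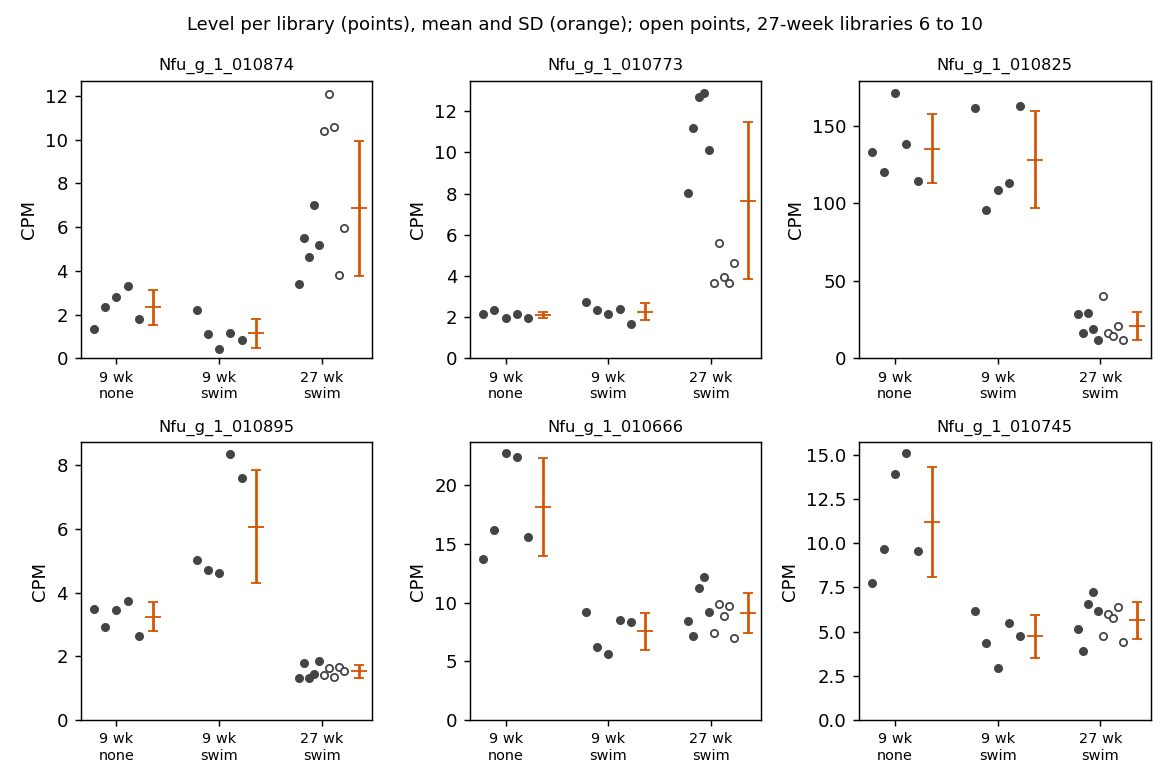
CPM (y axes from 0) of the 6 members called by identifier in each library of the 3 groups, with mean and SD in orange; open points are 27-week libraries 6 to 10. For Nfu_g_1_010773 the filled points (8.01 to 12.9 CPM) and open points (3.67 to 5.59 CPM) at 27 weeks separate, while for Nfu_g_1_010825 all 27-week points lie at or below 40.3 CPM.

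The most abundant members did not share a direction. The first, of 1446 bases, had a mean of 2195.6 CPM, and per length it was also the most abundant at 1518.4 CPM per kilobase. It ran from 2405.9 to 2597.7 CPM in 9-week swim-tunnel fish and from 1679.3 to 2223.2 CPM at 27 weeks, without overlap (log2 fold change -0.41 ± 0.14 SE, adjusted p = 0.0305 by edgeR). Without libraries 1 to 5 this was -0.17 and did not pass (adjusted p = 0.189), and without libraries 6 to 10 it was -0.74. The next, of 1807 bases, rose from 1003.9 ± 321.3 (SD, n = 5) to 2010.9 ± 627.9 CPM (SD, n = 10), with overlapping groups. Its log2 fold change was 0.95 ± 0.27 (adjusted p = 0.0104 by edgeR), 1.18 without libraries 1 to 5, and 0.64 without libraries 6 to 10, where it did not pass (adjusted p = 0.0559). The third, of 3346 bases, stood at 1116.5 ± 118.9 and 1257.3 ± 204.3 CPM, and its log2 difference of 0.18 ± 0.19 did not pass (adjusted p = 0.488). Its 27-week libraries divided wholly by set, with 938.7 to 1180.7 CPM in libraries 1 to 5 and 1327.9 to 1540.1 CPM in libraries 6 to 10, above every 9-week swim-tunnel library (highest 1309.5 CPM). It rose without libraries 1 to 5 (log2 fold change 0.53, adjusted p = 0.00145 by edgeR) and fell without libraries 6 to 10 (-0.33, adjusted p = 0.015). The longest member, of 15328 bases, fell from 150.2 ± 19.5 (SD, n = 5) to 103.3 ± 9.43 CPM (SD, n = 10), without overlap. Its log2 fold change was -0.56 ± 0.11 (adjusted p = 0.00109 by edgeR), -0.39 without libraries 1 to 5 and -0.79 without libraries 6 to 10.

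**Figure D5:**
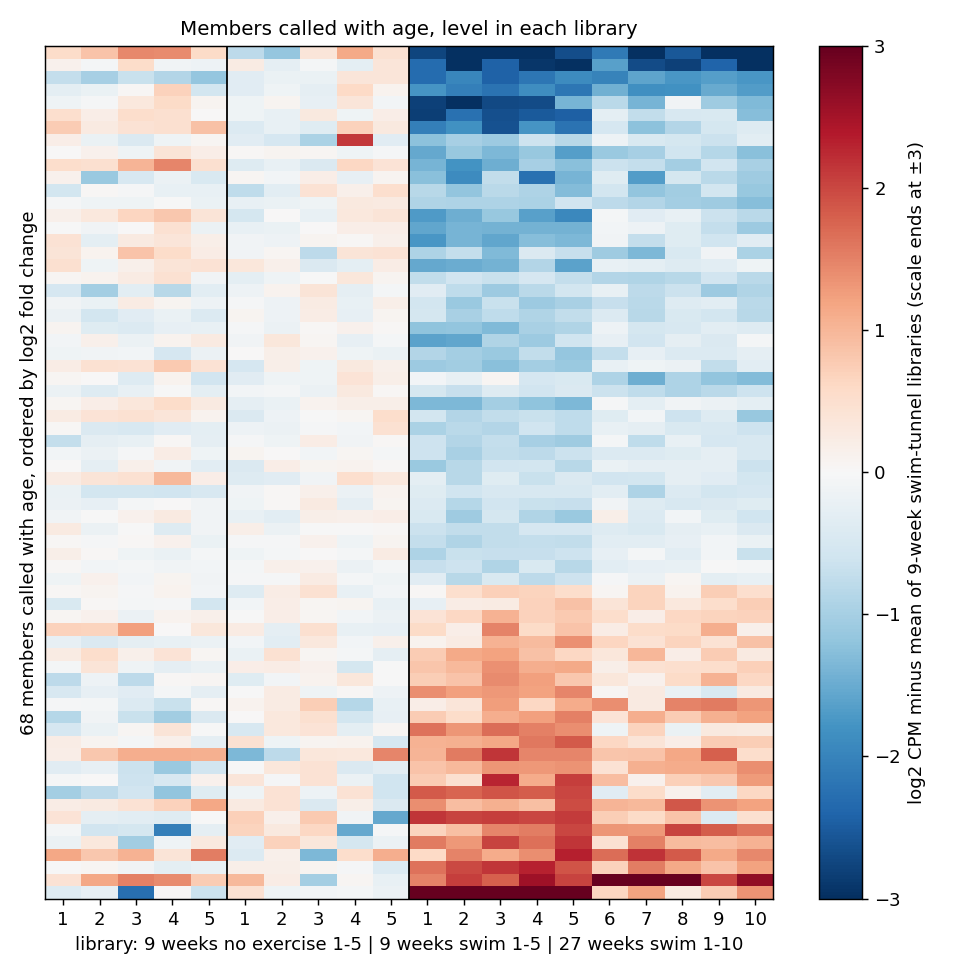
Rows are the 25 members called higher and 43 called lower with age, ordered by log2 fold change, and columns are the 20 libraries; colour gives log2 CPM minus the mean of the 9-week swim-tunnel libraries, with the scale ending at ±3. The 27-week columns are blue in the upper and red in the lower rows, and for many rows libraries 1 to 5 are deeper in colour than libraries 6 to 10.

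The comparison of the 9-week groups addressed exercise in young fish. Only 3 members passed the test. Nfu_g_1_010895 rose, as given above, and Nfu_g_1_010666 and Nfu_g_1_010745 fell; the latter pair are identified because the count is so small, after their values were seen. The rise made up 0.637% of the members, against 0.108% of all tested genes and 0.134% of those over 1 CPM. The falls made up 1.27% of the members, against 0.0721% and 0.0897%. At an unadjusted p under 0.05, 16 members were higher and 16 lower (10.2% each way), against 8.73% and 6.31% of the genes over 1 CPM. The median log2 fold change was 0.03, beside 0.04 for all tested genes over 1 CPM. Calls in either direction reached 1.91% of the members, which none of the 92 other stretches reached and 6 of 23448 overlapping ones did. The overlapping ones include stretches begun close to this one that hold the same 3 called genes. The 6 are thus not shown to be other places. The rank of the stretch rests on 3 genes, and 2 of them vary together.

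Nfu_g_1_010666, of 495 bases, had 13.7, 16.2, 22.8, 22.4 and 15.6 CPM in unexercised fish and 9.18, 6.19, 5.6, 8.51 and 8.34 CPM in swim-tunnel fish of 9 weeks. Every exercised library lay below every unexercised one. Exercise gave a log2 fold change of -1.25 ± 0.19 (SE; adjusted p = 0.012 by edgeR). At 27 weeks it ran from 6.94 through 9.03 to 12.2 CPM, and its log2 difference from 9-week swim-tunnel fish, 0.26 ± 0.17, did not pass (adjusted p = 0.242).

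Nfu_g_1_010745, of 348 bases, had 7.76, 9.67, 13.9, 15.1 and 9.56 CPM in unexercised and 6.16, 4.36, 2.92, 5.49 and 4.73 CPM in swim-tunnel fish, again without overlap. The difference was -1.23 ± 0.22 on the log2 scale (SE; adjusted p = 0.0253 by edgeR). The 27-week libraries ran from 3.91 through 5.87 to 7.22 CPM, a log2 difference of 0.25 ± 0.19 from 9-week swim-tunnel fish (adjusted p = 0.327). Without 27-week libraries 1 to 5 this difference was 0.41, and without libraries 6 to 10 it was 0.03, passing in neither fit (edgeR adjusted p = 0.146 and 0.933). The gene adjoins Nfu_g_1_010666 in the table, although their identifiers differ by 79. Over the 20 libraries the ratio of Nfu_g_1_010666 to Nfu_g_1_010745 in CPM ran only from 1.42 to 1.92 with a median of 1.63, and their deviations from the group means correlated with r = 0.949, or 0.942 with the means of the 27-week sets removed. Whether they share reads was not tested, and the 2 calls are not independent of each other.

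The calls for exercise lay near the threshold. That of Nfu_g_1_010666 did not pass without unexercised library 3 (edgeR adjusted p = 0.0542). That of Nfu_g_1_010745 did not pass without swim-tunnel library 2 or 3 or unexercised library 3 or 4, with adjusted p from 0.0652 to 0.0923. That of Nfu_g_1_010895 did not pass without any 1 of the 10 libraries of 9-week fish, with adjusted p up to 0.137. The fold changes themselves stayed between 0.81 and 0.99, between -1.32 and -1.10, and between -1.32 and -1.09 for Nfu_g_1_010895, Nfu_g_1_010666 and Nfu_g_1_010745 when single libraries were left out. The 27-week libraries enter this test through the estimate of the spread, the low-count filter, the scaling and the adjustment of p. Without libraries 1 to 5 of that group, 3 members rose and 6 fell (1.91% and 3.82%), against 1.39% and 1.02% of genes over 1 CPM, and without libraries 6 to 10, 7 rose and 6 fell (4.46% and 3.82%), against 2.29% and 1.52%.

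The 27-week swim-tunnel fish were also set against unexercised 9-week fish, a comparison in which age and exercise change together. Here 38 members rose (24.2%) and 46 fell (29.3%). Among all tested genes 21.2% rose and 18.9% fell, and among those over 1 CPM 22.7% and 22.4% did. Of the rises, 17 reached 2-fold and 3 reached 4-fold, and of the falls 15 and 2. The groups did not overlap for 7 rises and 27 falls (4.46% and 17.2% of the members), against 3.8% and 10.4% of the genes over 1 CPM. The share of falls was reached by 10 of the 92 other stretches, around a median of 21.8%, and that of rises by 31, around 22.9%.

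The 2 comparisons of 27-week fish share their 27-week libraries, so their calls are set side by side only. Both called 22 members higher and 35 lower (14.0% and 22.3%), and 12.5% and 15.5% of the genes over 1 CPM were called so. None of the members, and 5 of those genes, were called in opposite directions. For Nfu_g_1_010874 the difference from unexercised fish was 1.63 ± 0.4 on the log2 scale (SE; adjusted p = 0.00305 by edgeR), for Nfu_g_1_010773 it was 1.77 ± 0.25 (adjusted p = 2.42e-05), and for Nfu_g_1_010825 it was -2.72 ± 0.24 (adjusted p = 3.54e-07). Nfu_g_1_010666 and Nfu_g_1_010745 fell here too, by 0.99 and 0.97 on the log2 scale (adjusted p = 9.77e-05 and 0.000378), so that both stood lower in each swim-tunnel group than in unexercised 9-week fish. Without 27-week libraries 1 to 5, 23 of the 38 rises and 29 of the 46 falls were called again, and without libraries 6 to 10, 36 and 46. In the former fit 15.9% of the members rose and 19.7% fell, against 13.3% and 16.8% of the genes over 1 CPM. In the latter 30.6% rose and 38.2% fell, against 28.9% and 33.5%. A total of 62 members (39.5%) were called in none of the 3 comparisons, against 47.1% of the genes over 1 CPM.

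Members with neighbouring identifiers were no more alike than distant ones. After the group means were removed, the correlation of log2 CPM over the 20 libraries had a median of -0.02 over the 95 pairs of members 1 identifier apart (quartiles -0.233 and 0.314), and of 0.008 over 7737 such pairs elsewhere. At distances of 2, 5, 10, 50 and 100 identifiers the median lay between -0.061 and 0.052. Over all 12246 pairs of members it was 0.016, and 12 pairs exceeded 0.9. These correlations are descriptions over libraries that share depth and preparation.

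Neighbouring rows of the table were more alike than neighbouring identifiers. The 86 pairs of members in adjoining rows had a median correlation of 0.133, and 7684 other pairs of adjoining genes over 1 CPM had 0.093. With the means of the 27-week sets removed these were 0.116 and 0.092, and for pairs 1 identifier apart 0.02 in the stretch and 0.021 elsewhere. With only group means removed, members 2, 5, 10, 50 and 100 rows apart had medians of 0.143, 0.021, 0.062, 0.09 and 0.138, the last over 6 pairs. Elsewhere the median was 0.029 at 2 rows and -0.004 to 0.006 beyond. In the stretch, likeness thus did not fall steadily with distance in rows. Of the 86, 2 pairs exceeded 0.9, as did 2.55% of the pairs elsewhere. The more alike of these, genes of 1386 and 933 bases with r = 0.981, passed no test in any comparison, and the other is the pair that fell with exercise. Both members of 20 adjoining pairs (23.3%) were called with age, 12 of them in the same direction (60.0%), 4 higher and 8 lower. Elsewhere both were called in 14.6% of pairs, with the same direction in 62.9% of those. Single members were also called more often (15.9% higher and 27.4% lower, against 15.9% and 20.0% of the genes over 1 CPM). That alone raises the share of pairs with both called. Pairs called in the same direction made up 14.0% of all adjoining member pairs and 9.16% of those elsewhere, while among pairs with both genes called the share with 1 direction was similar.

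The stretch was not 1 run of the table. Divided wherever more than 200 rows lay between successive members or other genes of the stretch, a distance set after the table was seen, it formed 7 clusters. The largest held 102 of the identifiers within 112 rows, with 74 members, 6 higher and 18 lower with age. The next held 54 identifiers within 57 rows, with 39 members, 9 higher and 9 lower. The remaining 5 clusters held 2 to 18 members each, and in each of them at least as many members fell as rose, on few calls. Falls outnumbered rises among all tested genes over 1 CPM too, of which 20.0% fell and 15.9% rose. What fixes the order of the rows is not given in the sources used here.

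For the 6 members called by identifier, the genes with the most similar pattern were looked for among all 13383 tested genes over 1 CPM, by the correlation of deviations from the group means over 20 libraries, in which the 27-week sets still differ. The highest correlations ran from 0.771 for Nfu_g_1_010874 to 0.949 for the pair of Nfu_g_1_010666 and Nfu_g_1_010745. For that pair, the most similar gene was the other of the 2. For the other 4, none of the 3 most similar genes lay in the stretch. Members are only 157 of the 13383 genes searched, so this does not show whether members are alike.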

How the data were processed

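Muscle RNA of male killifish was sequenced in 20 libraries made, per the labels' protocols, with a TruSeq RNA kit. STAR 2.4.1d, featureCounts 1.4.6-p4 and bcl2fastq 1.8.4 are named by the submitters' processing notes, and the build, annotation and strand setting were not given in the sources used here. The authors deposited raw counts per gene and RPKM values, both for 26739 identifiers in 20 columns. The deposited RPKM values follow the counts only when library totals are assigned down the rows (100% reproduced, against 5.452% with each library's own total), so RPKM served only to recover gene lengths. Lengths were recovered for all 157 members, 148 of them to the exact base. No 2 libraries of a group agreed within sampling noise.

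Counts were tested in R 4.3.3 with edgeR 4.0.16 (filterByExpr with a minimum count of 10, TMM scaling, robust quasi-likelihood fit of all 3 groups, two-sided contrasts, Benjamini-Hochberg adjustment over 16653 genes, threshold 0.05). Standard errors are absolute log2 fold changes over the root of the F statistic. CPM used own library totals; for correlations a prior count of 2 was added before the log2. Alternatives used DESeq2 1.42.0, limma 3.58.1 (voom), other scaling, filters, libraries and stretch positions. Other stretches needed at least 50 members.

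The members and lists were chosen with earlier results of these data known. The naming rule took, among members called with age whose higher group averaged 5 CPM or more and whose groups overlapped in at most 1 library (met by 6 higher and 30 lower members), the 2 largest changes in each direction. The marker lists for muscle, blood, skin, neurons and liver had no identifier to look up, since 0 identifiers matched the 38438 genes of the reference table.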

Additional observations from a re-analysis of the deposited data

Results flagged for a closer look

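In groups of 4 to 10 libraries, the highest or lowest library was set apart by Dixon's criterion in 2 of 45 groups of values examined (described members and summed measures). Chance flags about 1 in 20 groups, here 2.25. A 2731-base member stood at 2.92 CPM in 9-week swim-tunnel library 1 and at 0.137 CPM or less in the 4 others of that group. The longest member stood at 203.5 CPM in unexercised library 4, while the other 4 lay between 132.5 and 139.9 CPM. With that library its group still lay wholly above the 27-week libraries, whose highest value was 114.5 CPM.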

How the results depend on the processing

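No paired analysis was possible because the labels give no animal, batch or other link that pairs samples between groups. The library numbers used here pair nothing. With age, upper-quartile scaling, no low-count filter, DESeq2, limma-voom and the 2 groups alone gave 23 to 27 members higher and 37 to 44 lower. At an adjusted p under 0.01, 16 were higher, and with a mean of at least 5 CPM, 8. For exercise, members higher numbered 0 without a filter, 4 by DESeq2, 2 with only the groups compared, 3 without 27-week libraries 1 to 5, 7 without libraries 6 to 10, and 0 both at 0.01 and at 5 CPM; members lower numbered 5 with only the groups compared, 6 without either set of 27-week libraries and 0 at 0.01. Where these counts are 0, the main fit had 16 members higher and 16 lower at an unadjusted p under 0.05 (10.2% each way). Of the genes over 1 CPM, 8.73% and 6.31% were so. The share of all genes called for exercise is given above for the fits without a 27-week set only. In the other settings the counts cannot be set against other genes. For 27-week fish against unexercised fish, members higher numbered 25 without libraries 1 to 5 (15.9%, against 13.3% of the genes over 1 CPM). They numbered 21 at 0.01 and 14 at 5 CPM. These last counts are given without the share of other genes. So are the counts with age by method and at 0.01, and all counts with single libraries left out. The share higher with age was 10.9% with the stretch moved towards lower identifiers and 8.79% at 5 CPM, and the share lower was 19.3% moved towards higher identifiers and 38.5% at 5 CPM, where 14.8% and 25.3% of all genes at that level were called. Without 27-week libraries 6 to 10 the shares were 22.9% and 35.7%, and without libraries 1 to 5 the share lower was 19.7%; these last, the means of the 27-week sets removed from correlations and the level division without genes under 1 CPM at 9 weeks were added after the data were seen. The cause was not tested. With single libraries left out, counts ran from 19 to 26 higher and 35 to 49 lower with age, 0 to 1 and 0 to 2 with exercise, and 30 to 39 and 41 to 50 against unexercised fish. The call of Nfu_g_1_010895 for exercise also failed without a filter (adjusted p = 0.0736) and without 27-week library 2, 4, 5, 6, 8 or 10. No named fold change reversed. Depth limits members near 1 CPM, where 24.3 to 38.6 counts carry a value.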

Other observations

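The 2731-base member with the largest uncalled difference with age (log2 2.15 ± 1.16, edgeR adjusted p = 0.165) was either low or high within every group. It stayed under 0.2 CPM in 10 libraries, with at most 4 counts and 0.137 CPM, and exceeded 2 CPM in the other 10, with 67 to 188 counts and at least 2.11 CPM. High libraries were 2 of 5 in unexercised fish, 1 of 5 in swim-tunnel fish of 9 weeks and 7 of 10 at 27 weeks. Among the 13383 tested genes over 1 CPM, 29 (0.217%) had libraries under 0.2 and over 2 CPM in all 3 groups, and the 2731-base gene was the one such member. Both limits lie inside this gene's own gap between low and high libraries, so the share is a description only.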
